A study of Mus musculus with 2 samples.

Results

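Neutrophils were picked out of 2 droplet-based single-cell RNA libraries of dissected mouse ciliary body, the ring of tissue behind the iris that makes aqueous humour. Both libraries came from untreated wild-type C57BL/6 mice at postnatal day 35, with the tissue labelled as ciliary epithelium. Each library pooled the eyes of several mice, 3 sets of eyes for library 1 and either 3 or 4 sets for library 2, since its labels differ, and the tissue was freed into single cells with collagenase. The design was exploratory, with no treated or mutant group. A cell barcode was kept when it held at least 500 detected genes and at most 30% of mitochondrial transcripts, each transcript being counted once as a unique molecular identifier (UMI). A kept barcode was a neutrophil when it held at least 10 UMIs of S100a8 and S100a9 together, at least 1 UMI of Csf3r, Retnlg or Il1b, and at most 2 UMIs of the complement genes C1qa, C1qb and C1qc. This gave 64 neutrophils among 9331 kept cells. Library 1 held 39 of 3865 cells, a share of 1.01% with an exact Clopper-Pearson 95% interval of 0.718% to 1.38%. Library 2 held 25 of 5466 cells, a share of 0.457% with an interval of 0.296% to 0.674%. The intervals did not overlap, but they cover counting error only, and with 1 pool of eyes each no test between the libraries was possible.

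Neutrophils are short-lived granulocytes that are made in the bone marrow and reach tissues through the blood. Their S100a8 and S100a9 proteins pair into calprotectin, which binds zinc, manganese and calcium and fills much of the cytosol. Granule proteins are made in successive stages of maturation in the marrow, those of primary granules first, those of secondary and tertiary granules later, so that a mature neutrophil carries many granule proteins whose messenger RNA has already gone. Csf3r is the receptor for granulocyte colony-stimulating factor, Retnlg a secreted resistin-like protein and Il1b the cytokine interleukin 1 beta, which macrophages also make. Whether the blood was flushed out before dissection is not given in the sources used here, so cells inside vessels and cells in the tissue cannot be told apart.

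The 3 other leukocyte classes used for comparison were gated on raw UMIs in the same way. They were 523 macrophages with at least 10 UMIs of C1qa, C1qb and C1qc (327 in library 1, 196 in library 2), 94 cells rich in major histocompatibility class II transcripts but with at most 2 C1q UMIs (60 and 34), and 99 T or natural killer cells (48 and 51). Neutrophils were shallow. Their median depth was 1351 UMIs and 708 genes in library 1 and 1895 UMIs and 869 genes in library 2, against 4976 and 5987.5 UMIs in C1q macrophages. Their median share of mitochondrial UMIs was 1.64% and 2.85%. No doublet caller was run. Of the 11 barcodes that occurred in both libraries, 0 were neutrophils.

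Among the 64 neutrophils, 6 stood apart by their depth. These barcodes held 4260, 4323, 4930 and 10645 UMIs in library 1 and 8541 and 65420 UMIs in library 2, and they supplied 32.6% and 62.7% of all neutrophil UMIs. The barcode with 65420 UMIs also held 1734 UMIs of Apoe, 268 of the pigment enzyme gene Dct, 129 of the fibroblast gene Dcn and 93 of the ciliary gene Optc. Calprotectin was 0.104% of its UMIs. The barcode with 10645 UMIs held 347 UMIs of Dcn. In all, 3 neutrophil barcodes also passed the gate of another cell class. Gene counts are therefore given again for the 58 neutrophils with at most 4000 UMIs, 35 in library 1 and 23 in library 2, a limit chosen after the depths were seen.

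**Figure D1:**
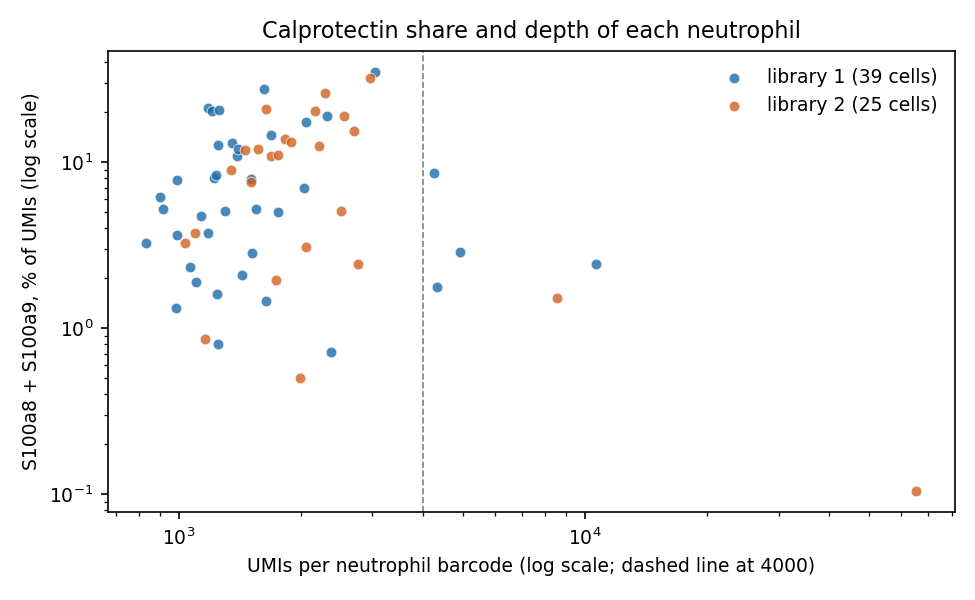
Each point is 1 neutrophil barcode, with its UMIs on the x axis and the percent of those UMIs from S100a8 and S100a9 on the y axis, both on log scales, coloured by library. The 6 barcodes right of the dashed line at 4000 UMIs reach 65420 UMIs, and the deepest of them has the lowest calprotectin share, 0.104%.

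The calprotectin genes were the most abundant transcripts of the selection rule. The neutrophils were chosen by the UMIs of the calprotectin, C1q, Csf3r, Retnlg and Il1b genes, so the levels of these genes are a description and were not tested. S100a8 had 3193 UMIs in library 1 and 2480 in library 2, or 43086 and 21036 CPM, the UMIs of a gene per 1000000 summed UMIs of the neutrophils of a library. S100a9 had 2848 and 3078 UMIs, or 38430 and 26109 CPM. Without the deep barcodes S100a8 was nearly level between the libraries, at 55255 and 54860 CPM. The order of the libraries changed for S100a9, at 48849 and 67152 CPM. A single neutrophil held between 10 and 1062 calprotectin UMIs in library 1, with a median of 88, and between 10 and 950 in library 2, with a median of 172. As a share of the cell's UMIs this ran from 0.715% to 35.0% with a median of 5.24% in library 1, and from 0.104% to 32.1% with a median of 10.9% in library 2. The same genes were close to absent from other leukocytes, which is partly set by the gates: C1q macrophages held 0 and 2 UMIs of S100a8 and 0 and 1 UMIs of S100a9. In rod photoreceptors, which should lack both genes, S100a8 was seen in 0.930% of 215 and 0.531% of 942 cells and S100a9 in 0 and 0.531%, at median depths of 1526 and 5134.5 UMIs.

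The cut of 10 UMIs fell in a nearly empty stretch of the distribution. The neutrophils nearest to it held 10, 13 and 17 calprotectin UMIs in library 1 and 10 and 10 in library 2. Outside it, library 1 had 0 kept cells with 3 to 9 such UMIs, and library 2 had 6 that held between 3 and 7. These 6 held between 2 and 43 UMIs of Csf3r, Retnlg and Il1b together and 0 C1q UMIs, so only the calprotectin cut left them out. The one with 43 had a depth of 1759 UMIs. With a cut of 5 UMIs library 2 held 28 neutrophils and library 1 again 39. A further barcode of library 1 had 34 calprotectin UMIs but 0 UMIs of Csf3r, Retnlg and Il1b and so was left out.

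Il1b was found in all 39 and all 25 neutrophils, with 492 and 553 UMIs. Per cell it ran from 2 to 38 UMIs with a median of 11 in library 1 and from 4 to 52 with a median of 18 in library 2. After each cell was thinned to 1000 UMIs, 97.0% and 96% of neutrophils kept an Il1b UMI. The shares were 9.54% and 29.5% in C1q macrophages and 23.3% and 39.4% in class II cells. T or natural killer cells held 1 and 0 Il1b UMIs in all. Csf3r was found in 36 and 23 neutrophils with 128 and 67 UMIs, against 33 and 39 UMIs in the far more numerous C1q macrophages. Retnlg was found in the fewest cells of the 5 genes: 13 of 39 and 17 of 25 neutrophils had a UMI of it, 3 and 7 of them had 10 or more, and 1 cell of library 1 held 94 of that library's 153 UMIs. C1q macrophages held 0 and 1 UMIs of Retnlg.

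**Figure D2:**
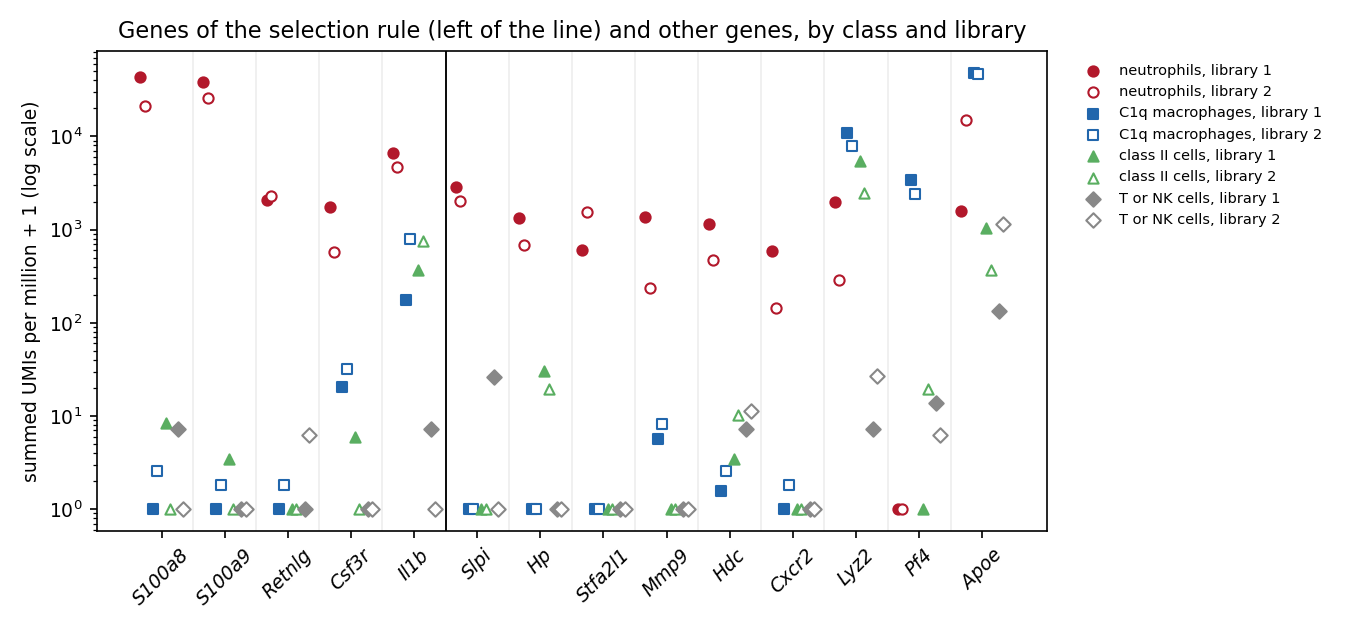
Summed CPM plus 1 (y axis, log scale) of 14 genes in neutrophils, C1q macrophages, class II cells and T or natural killer cells, with filled symbols for library 1 and open symbols for library 2. The 5 genes left of the vertical line chose the neutrophils, and Slpi, Stfa2l1 and Pf4 lie at 0 UMIs in at least 1 class in both libraries.

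The proximal promoters of 3 rule genes, S100a8, S100a9 and Retnlg, and of 2 genes outside the rule are shown. Slpi and Cxcr2 are among the 10 tested genes with the largest fold change over C1q macrophages. S100a8 and S100a9 lie 22596 bases apart on chromosome 3, on opposite strands. The sequences are from RefSeq (GRCm38.p6), 300 bases each, from 250 before to 50 after the annotated start, 5′ to 3′ on the gene's own strand. They cover chr3:90668821-90669120 (plus strand) for S100a8, chr3:90695672-90695971 (minus strand) for S100a9, chr16:48872358-48872657 (plus strand) for Retnlg, chr2:164356458-164356757 (minus strand) for Slpi and chr1:74153744-74154043 (plus strand) for Cxcr2. Capitals mark matches on either strand to the C/EBP pattern TTGCNNAA or to the PU.1 core GAGGAA, whose reverse complements also count. C/EBP factors and PU.1 are the textbook transcription factors of granulocytes and phagocytes, and the GAGGAA core is shared with other factors of the ETS family.
S100a8: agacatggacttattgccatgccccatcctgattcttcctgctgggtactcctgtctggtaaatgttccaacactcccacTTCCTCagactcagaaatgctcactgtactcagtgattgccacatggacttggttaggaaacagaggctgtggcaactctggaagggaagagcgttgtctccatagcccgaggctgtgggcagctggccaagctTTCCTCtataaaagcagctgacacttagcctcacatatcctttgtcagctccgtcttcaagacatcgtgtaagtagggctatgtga
S100a9: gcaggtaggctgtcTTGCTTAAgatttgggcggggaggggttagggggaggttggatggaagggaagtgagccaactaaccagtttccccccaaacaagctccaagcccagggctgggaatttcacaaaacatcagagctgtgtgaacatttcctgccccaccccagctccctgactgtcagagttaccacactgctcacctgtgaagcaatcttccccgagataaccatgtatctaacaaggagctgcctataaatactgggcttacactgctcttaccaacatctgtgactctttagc
Retnlg: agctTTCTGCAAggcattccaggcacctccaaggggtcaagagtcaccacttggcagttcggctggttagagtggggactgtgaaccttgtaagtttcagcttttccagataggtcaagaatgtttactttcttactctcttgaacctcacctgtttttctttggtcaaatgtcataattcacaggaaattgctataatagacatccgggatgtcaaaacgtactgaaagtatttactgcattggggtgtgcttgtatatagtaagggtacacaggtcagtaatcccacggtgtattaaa
Slpi: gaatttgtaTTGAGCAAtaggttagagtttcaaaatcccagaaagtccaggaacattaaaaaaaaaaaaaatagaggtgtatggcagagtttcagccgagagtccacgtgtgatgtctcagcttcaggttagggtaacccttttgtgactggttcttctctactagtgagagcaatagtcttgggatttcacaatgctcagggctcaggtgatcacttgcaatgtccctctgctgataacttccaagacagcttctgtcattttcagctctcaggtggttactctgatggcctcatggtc
Cxcr2: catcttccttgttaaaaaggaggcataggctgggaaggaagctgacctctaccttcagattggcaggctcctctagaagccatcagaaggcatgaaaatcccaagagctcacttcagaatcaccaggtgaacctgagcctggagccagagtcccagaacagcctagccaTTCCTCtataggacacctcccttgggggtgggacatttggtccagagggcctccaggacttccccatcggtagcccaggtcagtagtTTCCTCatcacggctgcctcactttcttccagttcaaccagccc
Counting the start base as 0, the C/EBP pattern begins at -236 in S100a9, -246 in Retnlg and -241 in Slpi, and the PU.1 core at -170 and -36 in S100a8 and at -81 and 6 in Cxcr2. The 2 patterns do not overlap in these windows. Of 18 neutrophil genes looked up, 15 had a promoter in the table, and 3 of the 15 held the C/EBP pattern and 7 the PU.1 core. Each promoter shown holds a match, and the 3 with the C/EBP pattern are all among them, so the display favours matches. The promoters of the rule gene Il1b and of Hdc, which are not shown, held neither pattern. That of the rule gene Csf3r, also not shown, held the PU.1 core. Among all 27025 promoter windows of this length, 10.8% held the C/EBP pattern and 28.3% the PU.1 core. A match of letters is not a binding site, and these data hold no binding measurement.

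The neutrophils of the libraries differed from each other in several genes, which is a description of 2 pools of eyes without a test. G0s2, an inhibitor of the lipase Pnpla2, had 12 UMIs in 4 of 39 cells of library 1 and 126 UMIs in 13 of 25 cells of library 2. After thinning to 1000 UMIs it was found in 9.09% of the 33 deep enough cells of library 1 and in 40% of the 25 of library 2. The neutrophil chemokine gene Cxcl2 had 92 UMIs in 15 cells and 238 UMIs in 16 cells. The stefin gene Stfa2l1, whose product belongs to the cysteine protease inhibitors, had 45 and 181 UMIs. Ifitm1, an interferon-inducible membrane protein gene, went the other way, with 588 UMIs in library 1 and 194 in library 2. So did Mmp9, the gelatinase of tertiary granules, with 101 and 28 UMIs, and after thinning it was found in 72.7% and 36% of cells. Slpi was found in 82.1% and 92% of cells, with a median of 3 UMIs per cell in library 1 and 9 in library 2.

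**Figure D3:**
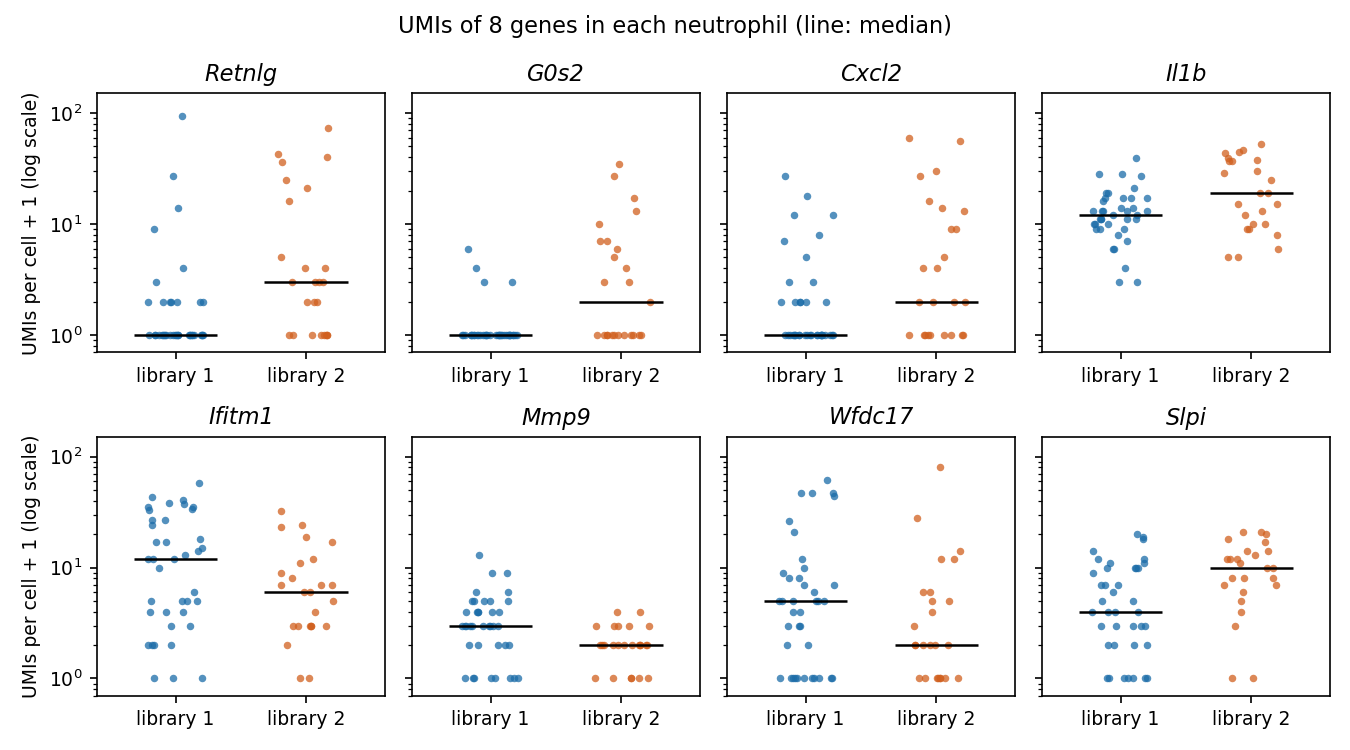
UMIs plus 1 (y axis, log scale) of 8 genes in each neutrophil of library 1 (39 cells) and library 2 (25 cells), with a line at the median. Il1b has a UMI in every cell, while Retnlg reaches 94 UMIs in 1 cell and is absent from most cells of library 1.

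Within the 35 and 23 neutrophils of at most 4000 UMIs, some genes varied together in both libraries. Spearman's rho between the shares of UMIs of Retnlg and Wfdc17, a secreted whey acidic protein-domain gene, was 0.61 in library 1 and 0.53 in library 2. Between Retnlg and G0s2 it was 0.31 and 0.58, and between Wfdc17 and calprotectin 0.51 and 0.44. Retnlg and Il1b showed no shared sign, at -0.41 and 0.30. These are descriptions over sparse counts of cells from the same pools, and all shares have the cell's total as their denominator.

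Transcripts of the primary granule list were at or near 0, while those of the secondary and tertiary list were mixed. Of the primary granule list, Mpo, Elane, Ctsg, Ms4a3 and Fcnb had 0 UMIs in both libraries, and Prtn3 and Prss57 had 1 UMI each, in library 1. Of the secondary and tertiary granule list, Ltf (lactoferrin), Camp (cathelicidin) and Chil3 had 0 UMIs, and so had Cd177 and Olfm4. Other genes of that list were found. Lcn2 had 9 UMIs in 5 cells of library 1 and 43 UMIs in 10 cells of library 2. Hp had 99 and 81 UMIs and Pglyrp1 58 and 30. Ngp (neutrophilic granule protein) had 8 UMIs, all in 1 cell of library 2, and Mmp8 had 4 and 5. Each library's neutrophils held only 74108 and 117891 UMIs in all, so a count of 0 is not an absence, and 3 UMIs over both libraries together are taken as its upper limit. The cell-cycle genes Mki67, Top2a, Cdk1, Ccnb1, Ube2c and Birc5 also had 0 UMIs. Genes of late maturation were found, among them Mmp9 and Cxcr2.

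To compare neutrophils with other leukocytes, UMIs were summed for each of 9 gated classes in each library, and the 18 sums were fitted with edgeR's quasi-likelihood test with the library as a block. A gene was called when its p, adjusted by the method of Benjamini and Hochberg, lay under 0.05 and its log2 fold change was at least 1 in size, over the 10153 genes that passed the filter on low counts and took no part in a gate. The replicates are 2 pools, and the block takes up the general difference between them. These p-values thus rest on how the differences between classes varied from pool to pool, over all 9 classes. Against C1q macrophages, 583 genes (5.74%) were higher and 638 (6.28%) lower in neutrophils, and 2528 had an unadjusted p under 0.05. Without the 6 deep barcodes, 313 genes (3.07%) were higher and 926 (9.07%) lower of 10208 tested, of which 215 and 506 were also called with all members. The median log2 fold change of all tested genes was -0.14 with all members and -1.02 without the deep barcodes. With DESeq2's size factors in the same fit the median moved up by 0.31, to 704 higher and 402 lower genes, so that 63.7% of the called genes were higher, against 47.7% with the main scaling. Since the deep barcodes held most UMIs of library 2, neutrophil CPM values there were often over 1.5 times higher without them, as for Slpi, with 3403 and 5167 CPM without them, and Stfa2l1, with 841 and 3915.

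The 10 genes with the largest fold change were named by rule. Slpi, the secretory leukocyte protease inhibitor, had 2834 and 2019 CPM in neutrophils, against 0 UMIs in the C1q macrophages of both libraries, at least 2310-fold higher when 3 UMIs are taken as the floor of both libraries together. Stfa2l1 had 607 and 1535 CPM, at least 1165-fold higher than in C1q macrophages, although reads of its near-identical stefin neighbours may not be separable. Hp, the haemoglobin-binding haptoglobin of granules, had 1336 and 687 CPM, at least 928-fold higher. Asprv1, a retroviral-like aspartic protease, was at least 505-fold higher and the receptor gene Trem3 at least 211-fold higher, again with 0 UMIs in C1q macrophages. Lrg1, a leucine-rich glycoprotein, had 48 and 53 UMIs, against 0 and 1 in C1q macrophages, a ratio of 1562 with a 95% counting interval of 274 to 62311. Hdc, the enzyme that makes histamine, had 1147 and 475 CPM, against 0.584 and 1.59 in C1q macrophages, a ratio of 727 with an interval of 244 to 3568. Cxcr2, the receptor for neutrophil chemokines, had 44 and 17 UMIs, against 0 and 1. Pglyrp1, a peptidoglycan-recognition protein of granules, had 58 and 30 UMIs, against 2 and 0. Mcemp1, a membrane protein gene of myeloid cells, had 37 and 15 UMIs, against 1 and 1. All 10 were called higher by edgeR's quasi-likelihood test, with the largest Benjamini-Hochberg adjusted p, 0.000138, for Trem3. With DESeq2's Wald test the calls of Slpi, Stfa2l1, Asprv1, Trem3 and Cxcr2 were lost.

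Of 14 secondary and tertiary granule genes, 7 passed the filter, and 6 of them were higher and 0 lower in neutrophils (median log2 fold change 6.49, against -0.14 over all tested genes). A gene with few UMIs elsewhere can pass the filter through the neutrophil sums, while one scarce in all classes is not tested. Counts of higher genes in this and the other lists of neutrophil genes therefore follow in part from the filter, in each comparison. Mmp9 had 1363 and 238 CPM in neutrophils, against 4.67 and 7.16 CPM in C1q macrophages. Its log2 fold change was 6.49 ± 0.92 (SE; edgeR quasi-likelihood, adjusted p = 0.000266), and the call was lost with DESeq2's Wald test. Lcn2, the siderophore-binding lipocalin, had 9 and 43 UMIs, against 0 and 3, a log2 fold change of 7.41 ± 1.09. Adam8, a membrane metalloprotease, and Anxa1, the pro-resolving annexin of tertiary granules, were higher by 4.88 and 3.10 on the log2 scale. For each of these genes both CPM values of neutrophils lay above both of C1q macrophages. Without the deep barcodes the list again gave 6 higher and 0 lower, and Mmp9 was at 1882 and 592 CPM. None of the 7 primary granule genes in the matrix passed the filter.

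The secreted and cytosolic defence list gave 8 higher and 1 lower of 9 tested genes (median 4.77). The calcium-binding S100a11 had 2780 and 1764 CPM in neutrophils, against 75.3 and 45.3 in C1q macrophages, a log2 fold change of 4.77 ± 0.30 (edgeR quasi-likelihood, adjusted p = 1.86e-08). S100a6, another member of the family, was higher by 4.11 ± 0.47. Wfdc17 had 5182 and 1442 CPM, against 868 and 271, a log2 fold change of 2.04 ± 0.39. The lower gene was Lyz2, the lysozyme of myeloid cells, with 1997 and 288 CPM in neutrophils, against 10946 and 7831 CPM in C1q macrophages, a log2 fold change of -3.67 ± 0.58 (edgeR quasi-likelihood, adjusted p = 0.000225). Lysozyme transcripts thus ran opposite to the other tested defence genes. Without the deep barcodes 9 were higher and 1 lower of 10.

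Receptors that guide neutrophils were higher or not called. Of 9 tested chemoattractant and growth factor receptors, 3 were higher and 0 lower (median 1.61): Cxcr2, Ltb4r1 (the leukotriene B4 receptor) and Cxcr4, which binds Cxcl12 and retains neutrophils in the marrow. Cxcr4 had 297 and 187 CPM, against 20.4 and 85.9 in C1q macrophages, a log2 fold change of 1.91 ± 0.50 (edgeR quasi-likelihood, adjusted p = 0.0150). Ltb4r1 had 10 and 2 UMIs, against 3 and 2. Without the deep barcodes 5 of the receptors were higher. C5ar1, the complement C5a receptor, had 216 and 110 CPM, against 129 and 196, and was not called, while without the deep barcodes it was at 260.3 and 296 CPM, above C1q macrophages in both libraries. Of 13 adhesion and trafficking genes, 6 were higher and 0 lower (median 0.89), as many as without the deep barcodes. Sorl1, a sorting receptor, was higher by 3.65 ± 0.49, the hyaluronan receptor gene Cd44 by 2.93 ± 0.46 and Selplg, the ligand of P-selectin, by 1.74 ± 0.43 on the log2 scale. The integrin genes Itgam and Itgb2 were measured in both classes without a call, at 0.42 ± 0.41 and 0.79 ± 0.55.

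Inflammatory mediators split. Of 12 chemokine and cytokine genes tested, Il1b being outside the test because it chose the cells, 2 were higher and 5 lower (median -1.21), as many as without the deep barcodes. Ptgs2, the inducible cyclooxygenase, had 729 and 483 CPM in neutrophils, against 4.67 and 68.4 in C1q macrophages, a log2 fold change of 4.52 ± 0.75 (edgeR quasi-likelihood, adjusted p = 0.000391). Il1rn, the interleukin 1 receptor antagonist, was higher by 3.10 ± 0.95. Tnf had 3 and 3 UMIs in neutrophils, against 255 and 436 in C1q macrophages, and was lower, at -3.51 ± 0.64. The monocyte-recruiting chemokine gene Ccl2 had 0 and 18 UMIs, against 962 and 1239, and was lower, at -3.93 ± 0.85. Activated macrophages are among the cells that make these signals, and the state of the C1q macrophages was not tested. Ccl3, Ccl4 and Ccl9 were lower as well, at -3.31, -2.09 and -3.61. Cxcl2 was not called, with 1241 and 2019 CPM in neutrophils, against 745 and 3059 in C1q macrophages, a log2 fold change of -0.31 ± 0.55. Without the deep barcodes Cxcl2 was at 1481 and 5304 CPM, above C1q macrophages in both libraries, with a log2 fold change of 0.23 that was not called. Its level in library 2 was the higher one in both classes.

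The dissociation markers belong beside these values, since collagenase digestion is known to induce Il1b, Cxcl2 and immediate early genes in some cells. The 14 genes of that list summed to 15208 and 14446 CPM in neutrophils, against 6116 and 11292 in C1q macrophages, and to 16597 and 24107 CPM in neutrophils without the deep barcodes. Of the 14, the phosphatase gene Dusp1 was called higher (1.61 ± 0.42, adjusted p = 0.0145 by edgeR's quasi-likelihood test), and 2 of the 14 were without the deep barcodes. The 1 higher of 14 is near the 5.74% called higher over all tested genes. The part of the dissociation markers in the mediator results was not tested.

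Pattern and Fc receptors gave 5 higher and 3 lower of 15 tested genes (median -0.07), and 6 higher and 1 lower without the deep barcodes. Trem1, an amplifier of inflammatory signals, had 20 and 21 UMIs in neutrophils, against 1 and 4 in C1q macrophages, a log2 fold change of 6.49 ± 0.91. Il1r2, the decoy receptor for interleukin 1, had 864 and 322 CPM, against 5.26 and 17.5, a log2 fold change of 5.31 ± 0.57 (edgeR quasi-likelihood, adjusted p = 9.73e-06). The C-type lectin receptor genes Clec4e and Clec4d and the inhibitory receptor gene Pilra were higher by 4.58, 2.73 and 2.48. With DESeq2's Wald test the calls of Trem1 and Clec4e were lost. The inhibitory Fc receptor gene Fcgr2b had 2 and 0 UMIs in neutrophils, against 580 and 572 in C1q macrophages, and was lower. Fcgr3 and Tlr2 were lower, at -1.59 and -3.06, but neither was called without the deep barcodes (-0.93 with an adjusted p of 0.130, and -2.70 with an adjusted p of 0.0561, by edgeR's quasi-likelihood test). The signalling adaptor genes Tyrobp and Fcer1g were abundant in both classes and not called.

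The phagocyte oxidase makes superoxide. Of its 7 tested genes, 0 were called higher and 2 lower (median -0.11), and 2 higher and 1 lower without the deep barcodes. Cybb, the catalytic subunit, had 16 and 0 UMIs in neutrophils, against 760 and 447 in C1q macrophages, a log2 fold change of -2.64 ± 0.68 (edgeR quasi-likelihood, adjusted p = 0.0150), and -4.88 without the deep barcodes, and the call was lost with DESeq2's Wald test. Its partner Cyba had 1768 and 746 CPM, against 2045 and 1479, and the call at -1.03 was lost without the deep barcodes (-0.76) and with DESeq2's size factors.

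Among lipid and amine mediator genes, Hdc was higher and Ltc4s, the leukotriene C4 synthase, lower of 6 tested (median 1.05), and 2 were higher and 1 lower without the deep barcodes. Ltc4s had 2 and 1 UMIs in neutrophils, against 673 and 551 in C1q macrophages, a log2 fold change of -5.16 ± 0.72. Alox5ap, the activating protein of 5-lipoxygenase, had 1795 and 713 CPM, against 507 and 340, and was called only without the deep barcodes (1.04 with them, 1.60 without). Of 16 interferon-response genes, 4 were higher and 1 lower (median -0.40), and 4 higher and 2 lower without the deep barcodes. The 1 lower of 16 is near the 6.28% called lower over all tested genes. The higher ones included 3 genes of 1 family, Ifitm1, Ifitm6 and Ifitm2, whose reads may be shared between near copies. Ifitm1 had 7934 and 1646 CPM, against 21.6 and 8.75 in C1q macrophages, a log2 fold change of 7.68 ± 0.66 (edgeR quasi-likelihood, adjusted p = 4.28e-07). Isg20, an exonuclease, was the fourth. Ifit3, an antiviral effector, was lower, at -2.57 ± 0.49.

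Transcription factor genes of granulocytes gave 3 higher and 0 lower of 10 tested (median 0.28). Mxd1, a Myc antagonist that rises as granulocytes mature, had 445 and 450 CPM in neutrophils, against 10.5 and 35.0 in C1q macrophages, a log2 fold change of 3.98 ± 0.49 (edgeR quasi-likelihood, adjusted p = 2.07e-05). Cebpb, a C/EBP factor of emergency granulopoiesis, had 2996 and 2138 CPM, against 522 and 859, a log2 fold change of 1.61 ± 0.47. Spi1, which encodes PU.1, was not called, at -0.25 ± 0.42, or at 0.28 without the deep barcodes, where it had 681 and 706 CPM in neutrophils, against 398 and 330. Without those barcodes 4 of the list were higher. Of 13 genes of NF-kB feedback and survival, 0 were higher and 1, Bcl2a1b, was lower (median -0.70), and 2 were higher and 1 lower without the deep barcodes. The 1 lower of 13 is near the 6.28% called lower over all tested genes. Bcl2a1b has near-identical copies, so its counts are uncertain, and its call was lost with DESeq2's size factors.

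The metabolism and hypoxia list, which also holds genes outside glycolysis, gave 6 higher and 0 lower of 14 tested (median 0.66), as many as without the deep barcodes. The higher genes included the glucose transporter genes Slc2a1 and Slc2a3, higher by 2.79 and 3.74 on the log2 scale. Also higher were the lactate transporter gene Slc16a3 (3.74 ± 0.61), the pyruvate kinase gene Pkm (1.25 ± 0.34) and the cystine transporter gene Slc7a11 (4.48 ± 0.62). The other glycolysis enzyme genes of the list, Gapdh, Ldha, Pgam1, Hk2, Hk3 and Pfkfb3, were not called with all members. G0s2 was higher by 6.61 ± 0.92 (edgeR quasi-likelihood, adjusted p = 0.000117), with 162 and 1069 CPM in neutrophils, against 7.01 and 3.18 in C1q macrophages. Of 8 cell-cycle genes, Cdk1 was lower, with 0 UMIs in neutrophils, against 89 and 63, at least 3.28-fold lower, and this call was lost without the deep barcodes.

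Genes of tissue macrophages were lower almost throughout. Of 20 tested, 0 were higher and 18 lower (median -5.46, or -4.12 with genes at 0 UMIs set to their bound), and as many without the deep barcodes. The chemokine gene Pf4 had 0 UMIs in neutrophils, against 5863 and 3033 in C1q macrophages, at least 192-fold lower. Outside that list, 0 UMIs were also found for Ccl12, at least 106-fold lower, and for the lipid receptor gene Trem2, at least 47.6-fold lower. Csf1r, the receptor that macrophages need to survive, had 6 and 2 UMIs, against 1331 and 887, a log2 fold change of -4.59 ± 0.50. Apoe had 1565 and 14921 CPM in neutrophils, against 48452 and 47229, and the neutrophil values were 320 and 546 CPM without the deep barcodes. Mertk and Ctsd were the 2 genes not called. The C1q genes set the gates of both classes, so a low level of genes that go with C1q follows in part from the choice of cells.

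**Figure D4:**
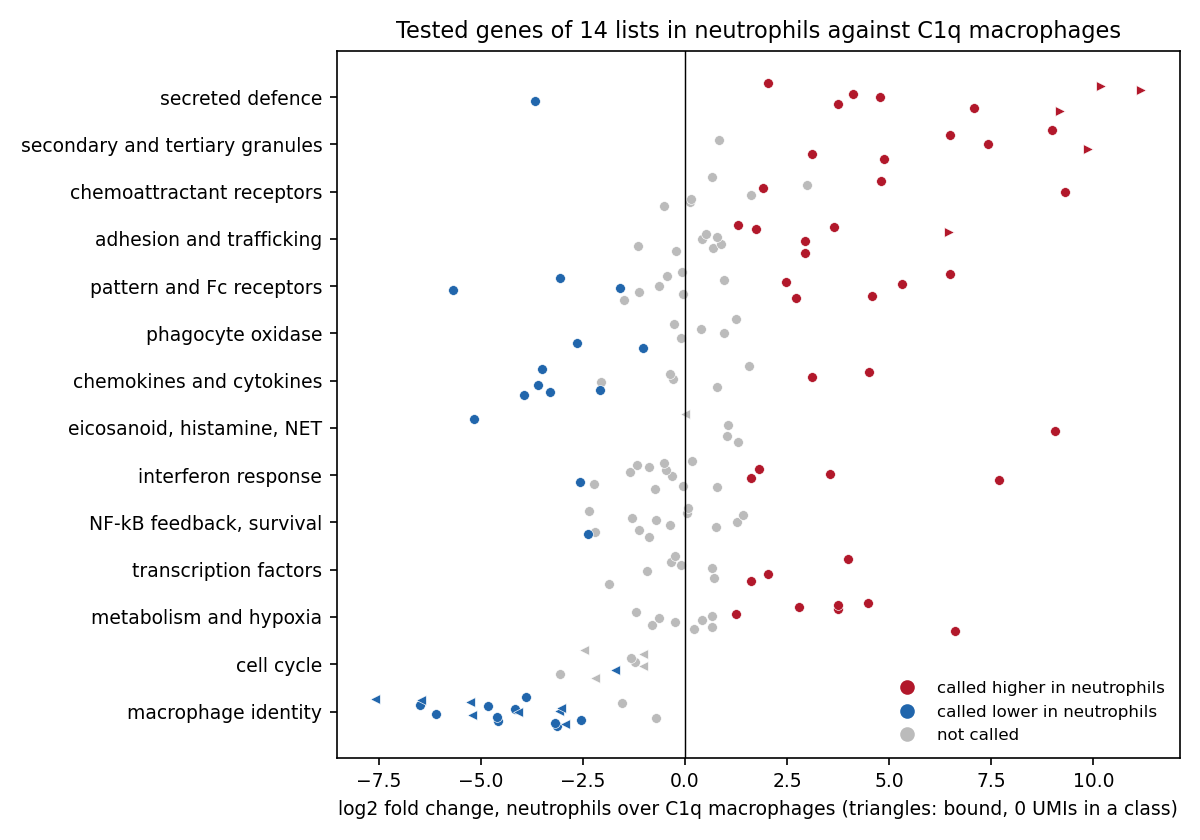
Log2 fold change of neutrophils over C1q macrophages (x axis) for each tested gene of 14 lists (rows), red where called higher, blue where called lower and grey where not called, with triangles at the bound for genes with 0 UMIs in 1 class. In the granule row 6 of 7 genes are called higher, which follows in part from the filter on low counts. In the macrophage identity row 18 of 20 are called lower.

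Markers of other cell types were present in the neutrophil sums, mostly through the deep barcodes. Ciliary epithelium markers summed to 148 and 2163 CPM in neutrophils, against 23.4 and 73.2 in C1q macrophages, and to 80.1 and 91.1 CPM without the deep barcodes. Of 6 tested ciliary markers, 5 were called higher in neutrophils, and 0 without the deep barcodes. Fibroblast markers summed to 10269 and 1739 CPM in all neutrophils, against 179 and 126 in C1q macrophages, and to 300.3 and 182 CPM without those barcodes. Melanocyte markers summed to 364 and 4385 CPM, against 228 and 336 in C1q macrophages, and to 480.5 and 751 without the deep barcodes, and 3 and then 0 of the 4 tested genes were called higher. Rod markers did not depend on them: all 8 were detected in both libraries, with 2132 and 3198 CPM in all neutrophils and 3063 and 5463 CPM in those of at most 4000 UMIs, against 262 and 2037 in C1q macrophages.

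The trace of other leukocytes differed by type. All 8 T and natural killer markers were at 0 UMIs in both libraries. Macrophage markers were limited to 2 of 7 genes, with Mrc1, Cd163, Lyve1, Ms4a7 and Folr2 at 0, and their 1592 and 14938 CPM were almost wholly Apoe. Monocyte markers were seen for 7 of 9 genes in library 1 and 1 of 9 in library 2, with 810 and 17.0 CPM, against 2396 and 2234 in C1q macrophages, and with Cx3cr1 and F13a1 at 0. The genes seen in library 1 included Ccr2, Fn1 and Ly6c2, the last with 0 UMIs in C1q macrophages. In library 1 the list had 60 UMIs, and 26 UMIs or 521 CPM without the deep barcodes. Plac8, which monocytes also express, had 28 UMIs in 5 cells of library 1 and 0 in library 2. Eosinophil markers were seen for 2 and 1 of 8 genes, with Prg2, Epx and Ccr3 at 0, and mast cell and basophil markers for 0 and 1 of 9. The part of any of these cell types in the results was not tested.

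**Figure D5:**
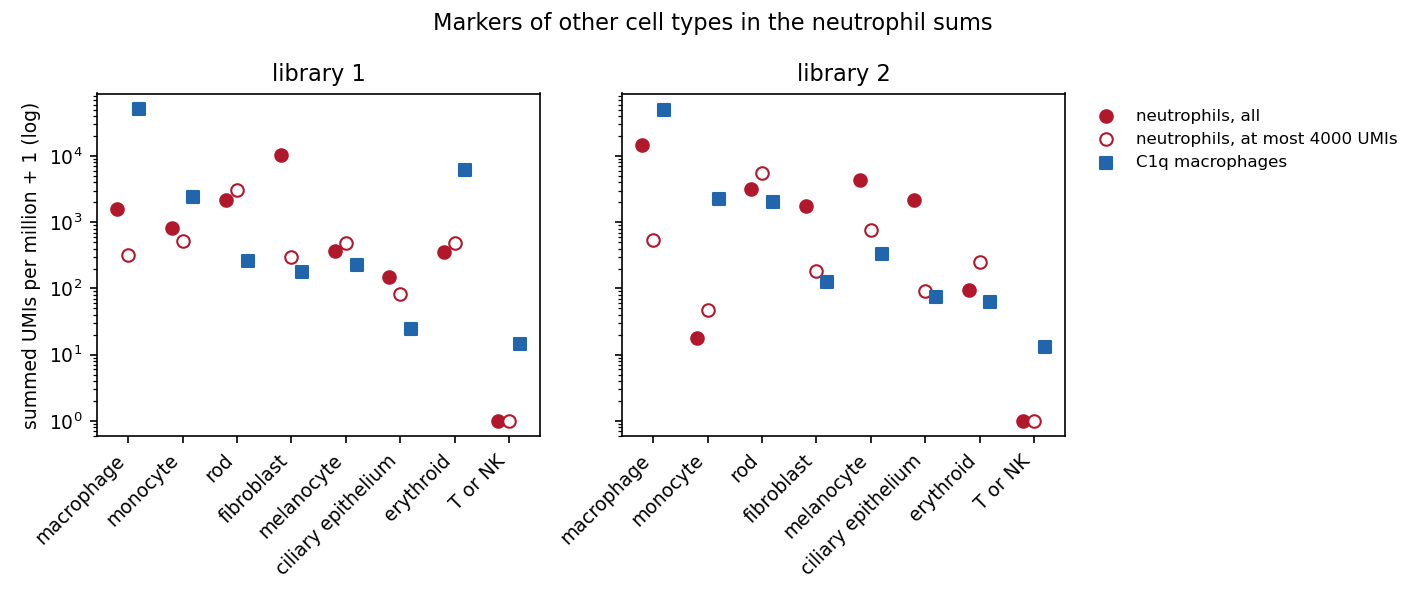
Summed CPM plus 1 (y axis, log scale) of 8 marker lists in all neutrophils, in neutrophils with at most 4000 UMIs and in C1q macrophages, in library 1 (left) and library 2 (right). In library 1, fibroblast markers are at 10269 CPM with the deep barcodes and at 300.3 CPM without them, and T or natural killer markers are at 0 in neutrophils.

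Against class II cells without C1q, 507 genes (4.99%) were higher and 584 (5.75%) lower in neutrophils, and 252 (2.47%) and 808 (7.92%) without the deep barcodes. DESeq2's size factors gave 656 higher and 407 lower genes, with the median of all genes up by 0.31. The 5 named genes had 0 UMIs in the class II cells of both libraries. Slpi was at least 482-fold higher, Stfa2l1 at least 243-fold, G0s2 at least 149-fold, Mmp9 at least 139-fold and Asprv1 at least 106-fold. With DESeq2's Wald test the calls of Slpi, Stfa2l1, Mmp9 and Asprv1 were lost. Secondary and tertiary granule genes gave 5 higher and 0 lower of 7, and chemoattractant receptors 4 higher and 0 lower of 9. Without the deep barcodes these counts were 5 and 0, and 6 and 0. Cxcl2 and Ptgs2 were the 2 cytokine-list genes called higher, and Ccl9 the only one called lower, while without the deep barcodes 4 of that list were higher and 1 lower. Of the 20 macrophage genes, 6 were lower and 2, Apoe and Ctsd, higher in neutrophils, and 5 lower and 1 higher without the deep barcodes. The Apoe log2 fold change was 2.68 with those barcodes and -1.59 without them, where it was not called.

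Against T or natural killer cells, which are not phagocytes, 495 genes (4.88%) were higher and 393 (3.87%) lower in neutrophils, and 369 (3.61%) and 580 (5.68%) without the deep barcodes. DESeq2's size factors gave 645 higher and 310 lower genes, with the median up by 0.20. Wfdc17 was at least 338-fold higher, Stfa2l1 at least 138-fold, Alox5ap at least 132-fold, Hp at least 109.7-fold and Mmp9 at least 78.6-fold, all with 0 UMIs in the T or natural killer cells of both libraries. With DESeq2's Wald test the calls of Stfa2l1, Hp and Mmp9 were lost. Of the pattern and Fc receptors 12 of 15 were higher and 0 lower, and of the chemoattractant receptors 7 of 9, as many as without the deep barcodes. The oxidase genes Cybb and Ncf1 were higher here, but Cybb was not called without the deep barcodes. Dissociation markers were higher for 8 and lower for 0 of 14 genes, and for 9 and 0 without those barcodes. Differences between the 3 comparisons were not tested, and they share the neutrophil sums.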

How the data were processed

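Single-cell RNA was measured in 2 libraries. The authors deposited raw UMI counts per gene and barcode for each library, with 33456 genes, 4764 and 6220 barcodes, 22510387 and 30683405 UMIs and a minimum of 500 UMIs per barcode. The matrix header names software version 3.1.0, and the submitters' processing notes name CASAVA 1.8, Cell Ranger, Seurat and the builds mm10 and GRCm38, while the annotation release is not given in the sources used here. A second deposited matrix per library differed in 0 entries and was not used.

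Kept cells (3865 and 5466) had median depths of 4128 and 2968 UMIs. Members, gates and gene lists were chosen with earlier results of these data known. UMIs were summed per class and library (9 classes, 18 sums) and fitted in edgeR 4.0.16 (R 4.3.3, limma 3.58.1) with trimmed-mean scaling, filterByExpr, terms for class and library, and 8 residual degrees of freedom. The code was tested on simulated data. Genes named were the 10 called genes with the largest change in each direction against C1q macrophages, up to 3 called per list and direction, and the 5 largest higher genes of each other comparison, with genes at 0 or outside these rules named for background after their values were seen. A fold against 0 UMIs used a floor of 3 UMIs over both libraries, and 95% intervals are exact and cover counting error only. Alternatives were DESeq2 1.42.0, other filters and gates, leukocyte classes only, no library block, and single libraries. Thinning to 1000 UMIs used seed 1. Azu1, Cstdc4 and Cebpd were not matched, and Clec7a, listed in 2 rows, was left out. Figures and shares were computed in Python 3.11.15.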

Additional observations from a re-analysis of the deposited data

How the results depend on the processing

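No named call reversed direction under the alternatives run. The balance of called genes did under several, for example: against C1q macrophages 704 genes were higher and 402 lower with DESeq2's size factors, against class II cells 656 and 407, and against T or natural killer cells 369 were higher and 580 lower without members above 4000 UMIs. Of 62 named calls, 33 held in every fit, 21 were lost with DESeq2's Wald test, 4 with DESeq2's size factors and 4 without neutrophils above 4000 UMIs, a limit chosen after seeing the data. Against C1q macrophages, the 583 higher genes became 893 with DESeq2's Wald test, 335 with leukocyte classes only, 318 without members that pass another gate and 313 without members above 4000 UMIs. The 638 lower genes became 402 with DESeq2's size factors, 334 with DESeq2's Wald test and 381 with leukocyte classes only. The fit with leukocyte classes only tested 3606 genes, against 10153 in the main fit. Its called shares were therefore larger in both directions although its counts were smaller. Against class II cells, the 507 higher genes became 238 without members of another gate and 252 without members above 4000 UMIs, and the 584 lower genes became 357 with DESeq2's Wald test. The cause was not tested. No count against T or natural killer cells moved by over 1.5 times.

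The library is the block, since all classes of a library come from the same pool. Without the replicate block the counts were 396 higher and 469 lower against C1q macrophages, 362 and 456 against class II cells and 371 and 306 against T or natural killer cells, and 12 named calls against C1q macrophages were lost (Bcl2a1b, Ccl2, Cdk1, Cebpb, Cxcr4, Cyba, Cybb, Fcgr3, Fosl2, Ifitm2, Ptgs2 and Selplg). With 1 library left out no residual degrees of freedom remain, so only single-library differences were computed, which ran from -11.51 to 12.11 on the log2 scale and reversed for 0 of 124 values. The named genes were chosen by calls from both libraries together, so their kept signs are no independent support. The share of neutrophils stayed within each library's interval under every gate tried. Depth limits genes with few UMIs: 74108 and 117891 UMIs back the neutrophil values.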
